A study of Mus musculus with 20 samples.

Results

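The 8 genes described here encode reductases of reactive carbonyls and of S-nitrosothiols: the aldo-keto reductases Akr1a1, Akr1b3, Akr1b8, Akr1b10, Akr1e1 and Akr7a5, the alcohol dehydrogenase Adh5 and the carbonyl reductase Cbr1. They were taken by gene name from the 56748 genes of 2 bulk RNA-seq count tables, with earlier results of these data known. The study had singled out AKR1A1 partly because activated cells lacking iNOS held less of it, in RNA as well as protein. A lower Akr1a1 in such cells was therefore known beforehand. All 8 were listed in both tables and had at least 10 counts in total in each. The 20 libraries came from mouse macrophages in 8 groups. The first table held 4 groups of 3 libraries labelled as bone marrow-derived macrophages (BMDM): wildtype or iNOS KO cells, each unstimulated or stimulated for 48 h with 50 ng/mL LPS and 30 ng/mL IFNγ. The labels give C57BL/6J mice for both genotypes, whereas the methods name B6.129P2-Nos2tm1Lau/J for the iNOS KO mice. By the labels, their marrow came from mice of 6 to 12 weeks and was grown with 20 ng/mL M-CSF. The study's methods describe marrow pooled by genotype, so no label ties a library to an animal, and they describe the iNOS KO RNA libraries as RAW264.7 cells, a mouse macrophage-like line. The first table is therefore called "labelled BMDM" throughout. Pycard, which RAW264.7 cells are known to lack, was at 0 to 0.832 CPM (counts scaled to a common library size) in it and at 0.0785 to 0.563 CPM in the RAW264.7 table. The second table held 4 groups of 2 RAW264.7 libraries: wildtype or Akr1a1 KO, each unstimulated or given LPS at 50 ng/mL together with IFNγ at 10 ng/mL for 48 h. The KO lines were made by Cas9 ribonucleoprotein and grown from sorted single cells, and the methods call the replicates of each group independent clonal ones.

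Inflammatory macrophages make nitric oxide (NO•) through iNOS, the product of Nos2, and NO• groups are carried on small thiols as S-nitrosoglutathione (GSNO) and S-nitroso-coenzyme A. ADH5 reduces GSNO with NADH, whereas AKR1A1 reduces both S-nitroso-coenzyme A and GSNO with NADPH, and CBR1 is a carbonyl reductase that also accepts GSNO. The other aldo-keto reductases use NADPH to turn aldehydes and ketones into alcohols: Akr1b3 encodes aldose reductase, the first enzyme of the polyol pathway, Akr1b8 and Akr1b10 encode close relatives of it, Akr1e1 encodes a reductase of anhydrofructose and Akr7a5 an aflatoxin aldehyde reductase.

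Akr1a1 and Akr1b8 were the reductases that rose most upon stimulation of the libraries labelled BMDM, and Akr1b10 is the neighbour and close relative of Akr1b8 that rose little. The 250 bases before their transcription starts are shown to let the 3 be compared. The sequences are from RefSeq (GRCm38.p6) and are written 5′ to 3′ on the strand of the gene, with GC boxes (GGGCGG on either strand) in capitals. They lie at chr4:116651675-116651924 on the minus strand for Akr1a1, at chr6:34353896-34354145 on the plus strand for Akr1b8 and at chr6:34383997-34384246 on the plus strand for Akr1b10.
Akr1a1: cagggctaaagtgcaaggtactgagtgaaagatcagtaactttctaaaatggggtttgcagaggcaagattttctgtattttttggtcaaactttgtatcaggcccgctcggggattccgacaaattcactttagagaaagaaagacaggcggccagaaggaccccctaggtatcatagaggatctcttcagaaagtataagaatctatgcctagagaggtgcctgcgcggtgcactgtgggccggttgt
Akr1b8: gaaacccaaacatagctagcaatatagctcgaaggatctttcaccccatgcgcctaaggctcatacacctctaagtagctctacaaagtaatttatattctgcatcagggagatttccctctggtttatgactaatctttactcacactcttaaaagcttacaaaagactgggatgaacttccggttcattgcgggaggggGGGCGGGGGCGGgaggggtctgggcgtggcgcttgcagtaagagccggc
Akr1b10: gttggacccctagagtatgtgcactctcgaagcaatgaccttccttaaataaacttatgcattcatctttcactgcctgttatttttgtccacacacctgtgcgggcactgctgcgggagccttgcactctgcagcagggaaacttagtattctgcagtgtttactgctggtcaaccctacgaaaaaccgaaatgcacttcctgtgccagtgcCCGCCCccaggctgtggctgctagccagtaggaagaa
Of the 8 genes, 7 had a promoter in the RefSeq table, and 4 of these 7 held a GC box, a motif present in 32.7% of the 32851 promoters of the table. Adh5 had 2 promoters there and held the motif in 1 of them, whereas the share is counted per promoter. Akr1b8 held adjacent copies, at 49 to 44 and 43 to 38 bases before the start, and Akr1b10 held 1 copy, at 37 to 32 bases. No match was found in any of the 7 for the antioxidant response element core TGACNNNGC (10.2% of all promoters), for the interferon-γ activated site TTCNNNGAA (7.02%) or for the E-box CACGTG (6.02%), each searched on both strands. These letters may still lie outside the window.

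Total counts were 15072109 to 18878107 per library in the table labelled BMDM and 11876719 to 44583327 in the RAW264.7 table. Of the 7 macrophage markers searched, 6 exceeded 1 CPM in every library, and Mertk was the exception. Labelled BMDM, their sum was 6720 to 7110 CPM in unstimulated wildtype and 4550 to 4810 CPM in unstimulated iNOS KO. After stimulation it was 6200 to 6950 and 9490 to 9890 CPM. In RAW264.7 it was 3790 to 4320 CPM in unstimulated wildtype and 2760 to 3010 CPM in unstimulated Akr1a1 KO. Stimulated, these were at 8680 to 9530 and 2990 to 6580 CPM. Nos2, the gene targeted in the iNOS KO, was at 1.25, 1.45 and 1.53 CPM in unstimulated wildtype and at 10400, 11500 and 11300 CPM in stimulated wildtype, against 0 in the 3 unstimulated and 870, 891 and 912 CPM in the 3 stimulated iNOS KO libraries. Both unstimulated RAW264.7 replicate B libraries carry the word stimulated in their titles and unstimulated in their treatment field. They were grouped by the treatment field, and the RAW264.7 comparisons that use them are given with and without them. Nos2 was at 30.7 and 38.1 CPM in them, within the 4.21 to 54.7 CPM of all unstimulated RAW264.7 libraries and below the 4160 to 8810 CPM of the stimulated ones. Under the BMDM label, iNOS KO stimulated replicate B stood apart from replicates A and C (chi-square per degree of freedom over genes 28.8 and 36.8, against 2.65 to 7.74 for all other replicate pairs), and the RAW264.7 pairs were at 15.5 to 68.6. The neutrophil marker sum rose with stimulation, from at most 1.17 CPM to between 35.6 and 61.8 CPM under the BMDM label and, in RAW264.7, from at most 0.623 CPM to between 121 and 419 CPM, nearly all of it S100a8, while Ly6g, Ngp and S100a9 stayed at or near 0. The lymphocyte marker sum was at most 0.693 CPM and the dendritic cell sum at most 3.7 CPM in the libraries labelled BMDM. The part of these markers in the results below was not tested. In bulk RNA, fewer cells of a type and less RNA per cell cannot be told apart.

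Per kilobase of gene length, Akr1a1 was the most abundant of the 8 genes in 7 of the 8 groups. In unstimulated wildtype libraries labelled BMDM the mean level was 230 CPM per kb for Akr1a1 and 98.7 for Akr1b8, followed by Akr1b3 (22.4), Adh5 (13.8), Akr7a5 (12.7), Cbr1 (8.81), Akr1b10 (6.42) and Akr1e1 (4.45), and no neighbours in this order overlapped. Stimulation placed Akr1a1 at 909 and Akr1b8 at 216 CPM per kb, with Adh5 at 15.5 above Akr1b3 at 10.7, and there Akr1b10 and Akr7a5 overlapped at 7.89 and 7.54. Unstimulated wildtype RAW264.7 cells had Akr1a1 at 166 CPM per kb, Akr1b3 at 48.8, Akr1b8 at 21.5 and Adh5 at 16.4. The group without Akr1a1 at the head was the unstimulated Akr1a1 KO, in which Akr1b3 stood at 46.1 and Akr1a1 at 41.4 CPM per kb with overlapping libraries. Akr1b8 was thus second to Akr1a1 in the libraries labelled BMDM, whereas Akr1b3 was second in unstimulated wildtype RAW264.7 cells.

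To see how the reductases respond to classical activation, stimulated wildtype libraries labelled BMDM were compared with unstimulated ones. Akr1a1 rose 3.95-fold and Akr1b8 2.19-fold, Akr1b3 and Akr7a5 fell along with Cbr1, and Adh5, Akr1b10 and Akr1e1 rose by 1.12- to 1.23-fold. All 8 genes were called by edgeR's quasi-likelihood test, 5 higher and 3 lower, where 60.9% of all genes tested were called, and 3 of the 8 changed by more than 1 on the log2 scale. The median log2 fold change of the 8 was 0.21, against 0.07 over all genes tested.

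Among the genes of S-nitrosothiol reduction, Akr1a1 was at 628, 612 and 661 CPM in the unstimulated wildtype libraries and at 2290, 2560 and 2660 CPM after stimulation, a log2 fold change of 1.98 (SE 0.0725, 3.95-fold, adjusted p = 2.43e-13). Every stimulated library lay above every unstimulated one. Adh5, the classical GSNO reductase gene, was at 72.5, 76.6 and 75 CPM before and at 80.8, 83.1 and 88 CPM after stimulation, a 1.12-fold rise (log2 0.17, SE 0.0693, adjusted p = 0.0448). The groups did not overlap, but the call was lost without wildtype stimulated replicate B or C, or without any 1 of the 6 unstimulated libraries (adjusted p from 0.0506 to 0.397). Cbr1 fell from 23.2, 23.1 and 21.2 CPM to 15.1, 16.5 and 17.6 CPM, again without overlap (log2 -0.46, SE 0.0919, adjusted p = 0.000374). Of the 3 genes, Akr1a1 therefore rose 3.95-fold, Adh5 changed little and Cbr1 fell.

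In the aldose reductase family, Akr1b3 and Akr1b8 moved in opposite directions. Akr1b3 fell from 190, 186 and 187 CPM to 88.8, 88.9 and 91.7 CPM, 2.09-fold lower (log2 -1.06, SE 0.0706, adjusted p = 6.59e-10). Akr1b8 rose from 146, 144 and 154 CPM to 310, 332 and 330 CPM, 2.19-fold higher (log2 1.13, SE 0.0588, adjusted p = 2.57e-11). Neither gene had overlapping groups. Akr1b10 rose 1.23-fold, from between 22.2 and 23 CPM to between 25.9 and 29.2 CPM (adjusted p = 0.0106, and 0.0988 without wildtype stimulated replicate C). Of the remaining reductases, Akr7a5 fell from 22.3, 22.8 and 23.4 CPM to 13.8, 13.2 and 13.6 CPM (log2 -0.76, SE 0.111, adjusted p = 1.4e-05). Akr1e1 went from between 14 and 17.4 CPM to between 18.4 and 20.3 CPM, a 1.18-fold rise with an adjusted p of 0.0362 that became 0.0553, 0.25 and 0.189 without wildtype stimulated replicate A, wildtype stimulated replicate C or wildtype unstimulated replicate C.

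**Figure D1:**
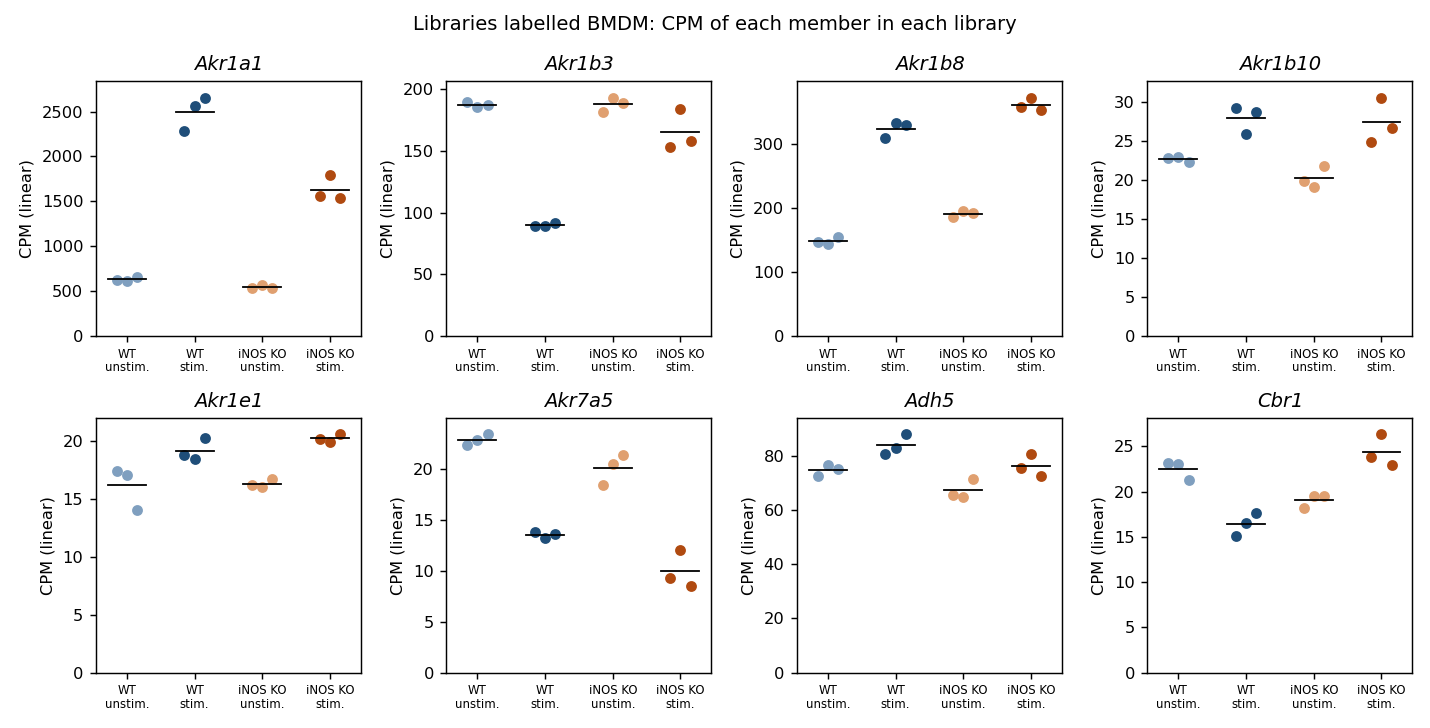
Level of each of the 8 genes in the libraries labelled BMDM, in CPM on a linear axis from 0, with 1 point per library and a black line at the mean of each group of 3. Akr1a1 and Akr1b8 are higher in both stimulated groups, Akr1b3 falls to between 88.8 and 91.7 CPM in stimulated wildtype alone, and Cbr1 moves down in wildtype and up in iNOS KO.

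Stimulation of the iNOS KO asked how these responses run without NO• from iNOS. All 8 genes were again called, 6 higher and 2 lower, where 51.9% of all genes tested were called. Akr1a1 rose from 539, 569 and 535 CPM to 1560, 1800 and 1530 CPM, 2.98-fold (log2 1.57, SE 0.0716, adjusted p = 7.98e-12). Akr1b8 rose 1.89-fold, from 185, 195 and 192 CPM to 357, 372 and 353 CPM (adjusted p = 6.96e-10). Akr7a5 fell from 18.4, 20.5 and 21.4 CPM to 9.32, 12 and 8.53 CPM (log2 -1.02, SE 0.114, adjusted p = 9.9e-07). None of these 3 had overlapping groups. Cbr1, which fell in wildtype, rose here from 18.2, 19.5 and 19.5 CPM to 23.8, 26.3 and 23 CPM (log2 0.35, SE 0.0894, adjusted p = 0.00314). Akr1b3 stood at 181, 193 and 189 CPM before and at 153, 184 and 158 CPM after stimulation, and here the groups overlapped (log2 -0.19, adjusted p = 0.0324). That call was lost without iNOS KO stimulated replicate A or C or iNOS KO unstimulated replicate B or C (adjusted p from 0.0818 to 0.105), whereas without iNOS KO stimulated replicate B, the highest of its group, the difference was -0.27 (adjusted p = 0.000122). Akr1b10, Akr1e1 and Adh5 rose 1.35-, 1.24- and 1.14-fold (adjusted p = 0.000842, 0.0108 and 0.0362). The Adh5 call was lost without replicate A or B of either iNOS KO group or without wildtype stimulated replicate C (adjusted p from 0.0683 to 0.125). It was also lost with DESeq2 (adjusted p = 0.0602) and, in edgeR, with DESeq2 size factors (0.0613), no filter on counts (0.0995) or only the compared groups (0.0943).

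Tested directly, the response to stimulation differed between iNOS KO and wildtype for 3 of the 8 genes, where 35.4% of all genes tested were called. The response of Akr1b3 was higher in iNOS KO by 0.88 on the log2 scale (SE 0.0984, adjusted p = 2.16e-06) and that of Cbr1 by 0.81 (SE 0.128, adjusted p = 8.71e-05). Akr1a1 responded less in iNOS KO, by -0.41 (SE 0.099, adjusted p = 0.00384). Akr1b3 thus fell 2.09-fold in wildtype against a change of -0.19 on the log2 scale in iNOS KO, and Cbr1 turned from a fall to a rise. For Akr1b8 the difference was -0.21 (SE 0.082, adjusted p = 0.0584). It passed with DESeq2 (-0.24, adjusted p = 0.0148) and also without iNOS KO stimulated replicate B (adjusted p = 0.0124) or wildtype stimulated replicate A (adjusted p = 0.0344). Akr7a5 did not pass with all libraries (-0.26, adjusted p = 0.235) but did without iNOS KO stimulated replicate B (-0.41, adjusted p = 0.0185). Akr1b10, Akr1e1 and Adh5 had differences of 0.14, 0.07 and 0.01 (adjusted p = 0.478, 0.764 and 0.952). Without iNOS KO stimulated replicate B, the differences were 0.79 for Akr1b3, 0.75 for Cbr1 and -0.48 for Akr1a1, each still called (adjusted p = 7.08e-10, 1.35e-05 and 6.82e-06).

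Before stimulation, 1 of the 8 genes differed between iNOS KO and wildtype, where 5.98% of all genes tested were called. This was Akr1b8, 1.29-fold higher in iNOS KO without overlap (log2 0.36, SE 0.0583, adjusted p = 0.000684). Akr1a1 was lower by -0.21 without overlap, and its adjusted p of 0.101 became 0.0048 without iNOS KO stimulated replicate B, a library outside the comparison that enters the shared estimate of the spread. That same library brought Cbr1 to an adjusted p of 0.0473 when left out (log2 -0.24, adjusted p = 0.149 with it). In edgeR, Akr1a1 was also called with only these groups fitted (-0.18, adjusted p = 0.00158) or with no filter on counts (adjusted p = 0.0235). With a replicate block it was not (adjusted p = 0.0878). The other 5 genes had log2 differences between -0.19 and 0.01 with adjusted p of 0.278 to 1.

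After stimulation, 5 of the 8 genes differed between the genotypes, 3 higher and 2 lower in iNOS KO, where 48.4% of all genes tested were called. Akr1b3 was 1.84-fold higher in stimulated iNOS KO (log2 0.88, SE 0.0706, adjusted p = 1.86e-08) and Cbr1 1.48-fold higher (log2 0.57, SE 0.0924, adjusted p = 6.61e-05). Akr1a1 was 1.53-fold lower (log2 -0.62, SE 0.0701, adjusted p = 1.3e-06), its 3 KO libraries lying between stimulated wildtype and both unstimulated groups. Akr7a5 was lower as well (log2 -0.45, SE 0.12, adjusted p = 0.00518), although not when only these groups were fitted (-0.37, adjusted p = 0.0621). Akr1b8 was 1.11-fold higher (adjusted p = 0.0349), a call lost without iNOS KO stimulated replicate A, iNOS KO unstimulated replicate C or wildtype stimulated replicate A (adjusted p = 0.0892, 0.0517 and 0.117). Adh5 was at a log2 difference of -0.14 with overlapping groups (adjusted p = 0.122, and 0.0233 without iNOS KO stimulated replicate B). Akr1b10 and Akr1e1 were within -0.03 and 0.08 of wildtype (adjusted p = 0.818 and 0.536). Without iNOS KO stimulated replicate B, the highest of its group for 7 of the 8 genes, the differences were 0.79 for Akr1b3, 0.51 for Cbr1, -0.69 for Akr1a1 and -0.60 for Akr7a5, all still called (adjusted p from 1.04e-12 to 5.34e-05). The fibroblast marker sum was 3.58 to 4.92 CPM in stimulated wildtype and 10.4 to 15.8 CPM in stimulated iNOS KO, with Col3a1 at 0 in all libraries, and its part in these differences was not tested.

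The Akr1a1 KO was examined first in the targeted gene itself. In unstimulated RAW264.7 cells the wildtype libraries had 427 and 488 CPM of Akr1a1, and the KO libraries 206 and 21.8 CPM. Stimulated wildtype libraries had 576 and 675 CPM, and stimulated KO libraries 370 and 212 CPM. Every KO library was below every wildtype library of its state, but the KO libraries ranged from 4.77% to 59.2% of the wildtype mean: 45% and 4.77% unstimulated, and 59.2% and 33.9% stimulated. Counts over the whole gene do not show where a transcript was edited or whether protein is made. For the protein, the study's methods describe screening of the clones for the knockout by immunoblot. The log2 difference was -2.01 unstimulated (95% interval -3.84 to -0.19, adjusted p = 0.56) and -1.10 stimulated (95% interval -2.88 to 0.67, adjusted p = 0.643), so the targeted gene itself was not called with 2 libraries per group. Without Akr1a1 KO unstimulated replicate A the unstimulated difference was -4.39 (adjusted p = 0.0133), and without replicate B, at 4.77% the lowest, it was -1.15. Without both libraries of conflicting labels it was -1.05 (adjusted p = 1).

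**Figure D2:**
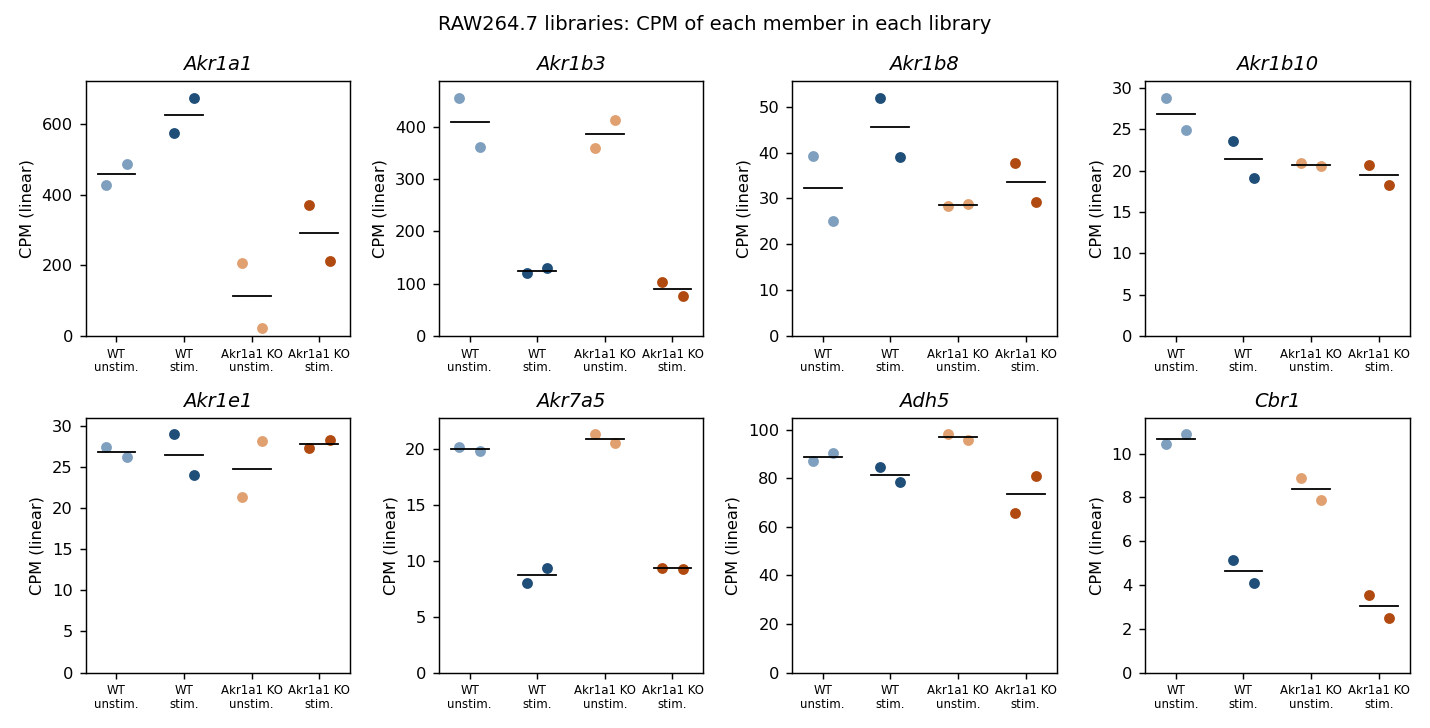
Level of each of the 8 genes in the RAW264.7 libraries, in CPM on a linear axis from 0, with 1 point per library and a black line at the mean of each group of 2. The Akr1a1 KO points lie apart from each other and below wildtype, Akr1b3, Akr7a5 and Cbr1 are lower in both stimulated groups, and the unstimulated KO points of Akr1b3 and Akr1b8 overlap those of wildtype.

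Whether another reductase took a higher level in the Akr1a1 KO was asked of the 7 remaining genes. None of the 8 genes was called by edgeR's quasi-likelihood test in either state, where 0.583% of all genes tested were called unstimulated and 0.286% stimulated. At an unadjusted p under 0.05 there was 1 of the 8 in each state, Akr1a1 unstimulated and Akr1b3 stimulated, and DESeq2 called 0 in both. Akr1b3 stood at 456 and 362 CPM in unstimulated wildtype against 359 and 413 CPM in the unstimulated KO, with overlap. With stimulation, wildtype had 120 and 130 CPM and the KO 103 and 77 CPM, lower in the KO without overlap (log2 -0.47, 95% interval -0.89 to -0.06, adjusted p = 0.395). Its fold of KO over wildtype had a 95% interval of 0.711 to 1.26 unstimulated and 0.54 to 0.96 stimulated.

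Adh5, the other GSNO reductase gene, stood at 86.9 and 90.5 CPM in unstimulated wildtype against 98 and 95.9 CPM in the unstimulated KO. Stimulated wildtype had 84.8 and 78.2 CPM, and the stimulated KO 65.9 and 81 CPM. The KO libraries were thus slightly higher unstimulated and overlapped wildtype when stimulated, with intervals of 0.89 to 1.34 and 0.734 to 1.11 for the fold of KO over wildtype. For Cbr1 the intervals were 0.517 to 1.19 and 0.422 to 1.02, for Akr1b8 0.608 to 1.31 and 0.501 to 1.08, and for Akr1b10 0.588 to 1.01 and 0.695 to 1.2. Akr1e1 had intervals of 0.698 to 1.22 and 0.791 to 1.39, and Akr7a5 of 0.8 to 1.37 and 0.809 to 1.41. A rise of more than 1.41-fold in any of the 7 lay outside these intervals, each of which is for 1 gene. The unstimulated intervals rest on both libraries of conflicting labels. Without them, with 1 unstimulated library per genotype, 0 of the 8 genes were called in either state, and the unstimulated log2 differences were 0.17 for Adh5, 0.08 for Akr7a5, -0.24 for Cbr1, -0.34 for Akr1b3, -0.37 for Akr1e1 and -0.47 for both Akr1b8 and Akr1b10. Akr1b3 and Akr1e1 were at -0.08 and -0.11 with them. The difference in stimulation response between KO and wildtype was called for 0 of the 8 genes (0 at an unadjusted p under 0.05, 0 with DESeq2), where 0.0204% of all genes tested were called.

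In wildtype RAW264.7 cells, stimulation lowered Akr1b3, Akr7a5 and Cbr1. These 3 of the 8 genes were called, all lower, where 37.7% of all genes tested were called. Akr1b3 fell from 456 and 362 CPM to 120 and 130 CPM, 3.27-fold (log2 -1.71, SE 0.184, adjusted p = 0.000192). Akr7a5 fell from 20.2 and 19.8 CPM to 8.03 and 9.34 CPM, 2.3-fold (adjusted p = 0.000889). Cbr1 fell from 10.5 and 10.9 CPM to 5.13 and 4.11 CPM, 2.31-fold (adjusted p = 0.00788). None of the 3 had overlapping groups, although groups of 2 libraries separate easily. Akr1a1 went from 427 and 488 CPM to 576 and 675 CPM, higher in both stimulated libraries but not called (log2 0.45, SE 0.766, adjusted p = 0.684). Akr1b8 was at 39.3 and 25.1 CPM before and at 52 and 39.1 CPM after stimulation, with overlap (log2 0.505, adjusted p = 0.137). Its log2 difference was 0.856 without wildtype unstimulated replicate A. It was 0.211 without wildtype unstimulated replicate B, and also without both libraries of conflicting labels. Adh5, Akr1b10 and Akr1e1 had log2 differences of -0.12, -0.33 and -0.02 (adjusted p = 0.493, 0.165 and 0.953).

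In the Akr1a1 KO the same 3 genes and Adh5 were called, all lower, where 39.2% of all genes tested were called. Akr1b3 went from 359 and 413 CPM to 103 and 77 CPM, 4.29-fold lower (adjusted p = 6.63e-05). Akr7a5 was 2.25-fold lower (adjusted p = 0.000969). Cbr1 went from 8.88 and 7.86 CPM to 3.55 and 2.51 CPM, 2.76-fold lower (adjusted p = 0.00335). The Adh5 fall, 1.32-fold with an adjusted p of 0.0387, was lost without Akr1a1 KO stimulated replicate A or any 1 of the 4 unstimulated libraries (adjusted p from 0.0602 to 0.17) and with DESeq2. Akr1a1 itself had a log2 difference of 1.36 (SE 0.782, adjusted p = 0.208). This difference was 3.74 without Akr1a1 KO unstimulated replicate A. It was 0.499 without unstimulated replicate B, and also without both libraries of conflicting labels. With both replicate B libraries of conflicting labels left out, Akr1b3 and Akr7a5 still passed in wildtype (log2 -1.87 and -1.22, adjusted p = 0.00213 and 0.0245), Cbr1 did not (-1.18, adjusted p = 0.0892), and in the KO Akr1b3, Akr7a5 and Cbr1 passed (adjusted p = 0.00163, 0.0249 and 0.0375) and Adh5 did not (adjusted p = 0.196).

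**Figure D3:**
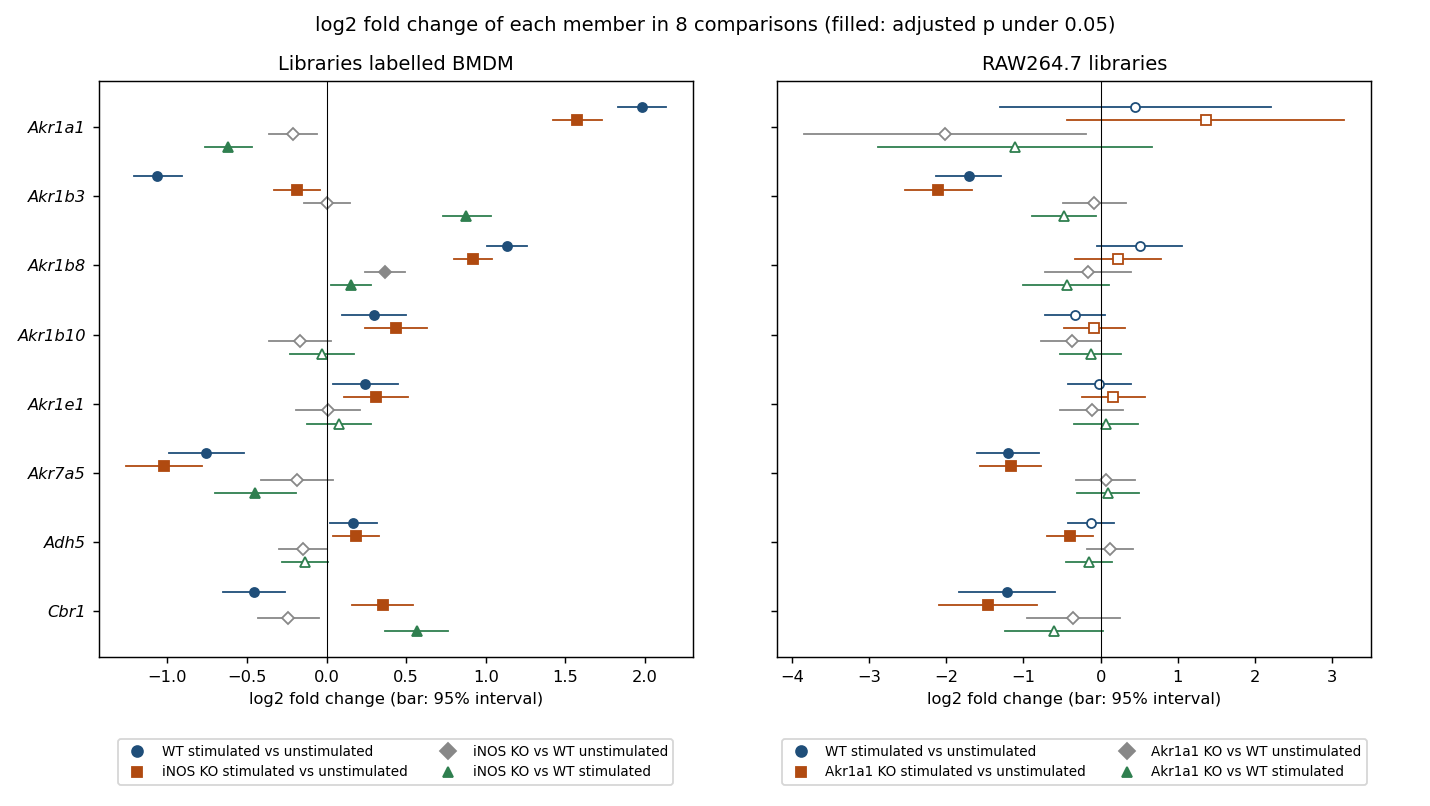
Log2 fold change of each of the 8 genes in 8 comparisons, with its 95% interval as a bar and a filled point where the adjusted p was under 0.05. In the libraries labelled BMDM the intervals are narrow and all 8 genes are filled for stimulation in both genotypes, whereas in RAW264.7 the interval of Akr1a1 is the widest and no point is filled for Akr1a1 KO against wildtype.

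Genes around these pathways were counted in 5 lists. Of 12 thioredoxin, glutaredoxin and peroxiredoxin denitrosylases, a list curated by the study and used here without Adh5 and Akr1a1, 6 rose and 6 fell in stimulated wildtype libraries labelled BMDM, where 32.4% of all genes tested rose and 28.5% fell. After stimulation 5 were higher and 3 lower in iNOS KO than in wildtype, where 24.2% of all genes tested were called in each direction. Prdx1, a peroxiredoxin, rose by 3.60 on the log2 scale in wildtype (adjusted p = 1.05e-17) and was lower in stimulated iNOS KO by -0.92 (adjusted p = 2.97e-10), the same directions as Akr1a1. Glrx, a glutaredoxin, rose by 1.47 in wildtype and was higher in iNOS KO by 1.91 (adjusted p = 5.06e-13). Apex1, a DNA repair endonuclease with redox activity, fell by 3.25 in wildtype and was higher in iNOS KO by 2.14 (adjusted p = 1.44e-08). Txnrd1, a thioredoxin reductase, rose by 1.15 in wildtype and was lower in iNOS KO by -0.49, and Prdx2, a further peroxiredoxin, was higher in iNOS KO by 0.69 (adjusted p = 1.03e-06). The list had a median log2 fold change of 0.11 in wildtype, against 0.07 over all genes tested.

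Of 7 tested carbonyl reductases and alcohol dehydrogenases, 2 rose and 3 fell in stimulated wildtype, a share called near that of all genes tested (60.9%), with a median of -0.08 against 0.07. One of the 3 that fell, Cbr2, had at most 6 counts in any library. Between stimulated genotypes 1 was higher and 3 lower in iNOS KO, where 48.4% of all genes tested were called. Esd, which hydrolyses S-formylglutathione, the product ADH5 makes from the formaldehyde adduct of glutathione, went from 397 to 416 CPM to 1580 to 1790 CPM in wildtype and from 381 to 391 CPM to 1100 to 1140 CPM in iNOS KO. It was lower in stimulated iNOS KO by -0.60 on the log2 scale (adjusted p = 1.22e-07) and rose in RAW264.7 wildtype by 2.67 (adjusted p = 1.53e-05). Adh5, the gene of the preceding step, changed 1.12-fold. Cbr3, the closest relative of Cbr1 in the list, fell from 20.1 to 21.7 CPM to 10.8 to 13 CPM in wildtype (log2 -0.83, adjusted p = 3.75e-06) and was at 18.5 to 20.9 CPM and then 20.1 to 25.2 CPM in iNOS KO. Its response was higher in iNOS KO by 1.08 (adjusted p = 2.03e-05), beside 0.81 for Cbr1. Adh7, a retinol-active alcohol dehydrogenase, rose by 1.23 in wildtype (adjusted p = 4.39e-08) and was lower in stimulated iNOS KO by -0.88. Dhrs4, a short-chain dehydrogenase, fell by 0.86 in wildtype, and Cbr4 was lower in stimulated iNOS KO by -0.69.

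Of 16 tested genes of aldehyde disposal and the polyol pathway, 4 rose and 11 fell in stimulated wildtype, where 32.4% of all genes tested rose and 28.5% fell, with a median of -0.79 against 0.07. Between stimulated genotypes 7 were higher and 4 lower in iNOS KO, where 48.4% of all genes tested were called. Sord, the sorbitol dehydrogenase that follows aldose reductase in the polyol pathway, fell by 1.28 (adjusted p = 1.32e-09) and was higher in stimulated iNOS KO by 0.86 (adjusted p = 5.92e-07), beside 0.88 for Akr1b3. In RAW264.7 wildtype Sord fell by 1.51 (adjusted p = 0.00172) and Akr1b3 by 1.71. Khk, the fructose kinase, fell by 1.60 in wildtype and was lower in stimulated iNOS KO by -0.60. Aldh18a1, an enzyme of proline synthesis, fell by 1.71 (adjusted p = 2.19e-10), and its response was higher in iNOS KO by 1.503 (adjusted p = 3.23e-07). In the directions of Akr1a1, Aldh6a1 and Aldh7a1, both aldehyde dehydrogenases, rose by 1.51 and 1.52 in wildtype and were lower in stimulated iNOS KO by -1.18 and -0.43 (adjusted p = 1.36e-05 and 0.0146). Aldh5a1, the succinic semialdehyde dehydrogenase, fell by 1.96 in wildtype from few reads (mean 1.91 CPM).

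Of 6 regulators around NRF2, the transcription factor of the antioxidant response, 5 rose and 0 fell in stimulated wildtype. Of all genes tested, 32.4% rose and 28.5% fell (60.9% called), and the median was 0.46 for the list against 0.07. Maff and Mafk, small MAF partners of NRF2, rose by 3.49 and 1.64 (adjusted p = 3.41e-15 and 1.39e-11), Bach1 and Mafg by 0.57 and 0.34, and Nfe2l2, which encodes NRF2, was at -0.12 (adjusted p = 0.139). In stimulated iNOS KO 0 of the 6 were higher and 3 lower than wildtype, where 24.2% of all genes tested were called in each direction. The share called in either direction was near the 48.4% of all genes tested. Of the 6 other aldo-keto reductases tested, 1 rose and 1 fell in stimulated wildtype (median 0.17 against 0.07), where 60.9% of all genes tested were called. Some were near the floor: Akr1b7 and Akr1c12 had at most 6 and 5 counts in any library labelled BMDM, and Kcnab3 a mean of 0.316 CPM. Kcnab1, a potassium channel subunit of the family, rose by 5.25 from as few as 3 counts in a library (adjusted p = 2.61e-11), Kcnab2, a further subunit, fell by 0.30, and Akr1c13 was higher in stimulated iNOS KO by 1.10 (adjusted p = 7.59e-07). In RAW264.7 no gene of any of the 5 lists was called between Akr1a1 KO and wildtype in either state. Of all genes tested, 0.583% were called unstimulated and 0.286% stimulated, so lists of this size could be expected to hold none.

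**Figure D4:**
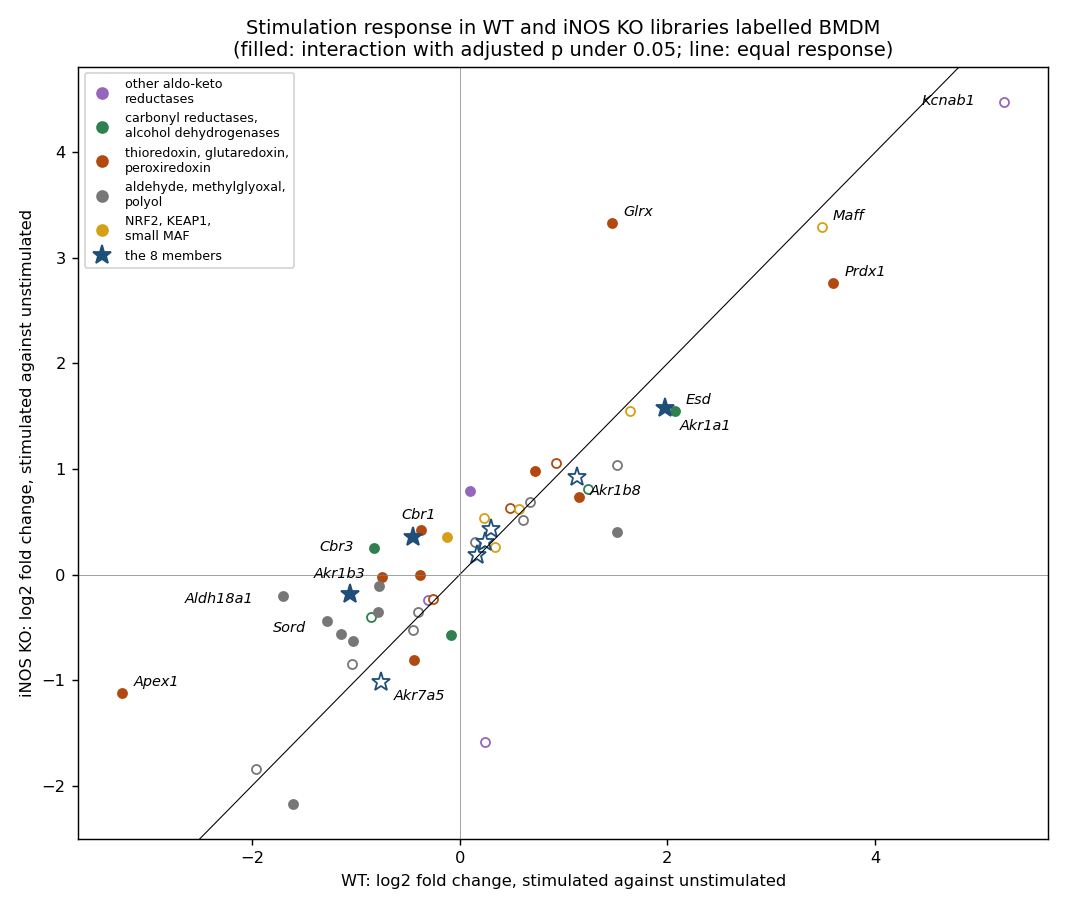
Response to stimulation in wildtype (horizontal, log2 fold change) and in iNOS KO (vertical, log2 fold change) in the libraries labelled BMDM, with the 8 reductases as stars, genes of the 5 lists as circles coloured by list and the line of equal response. List genes with at most 3 counts in every library of any group are not drawn, among them Cbr2, Akr1b7 and Akr1c12. Filled symbols mark genes whose 2 responses differed (adjusted p under 0.05): Akr1b3 and Cbr1 lie above the line beside Cbr3, Sord, Glrx and Apex1, and Akr1a1 lies below it with Prdx1 and Esd.

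Across the 12 libraries labelled BMDM, the protein-coding genes whose log2 CPM followed that of Akr1a1 most closely were Degs1 (Pearson's r 0.999), Atp6v1e1, Slc48a1, Plxna1 and Fth1 (each 0.998). Across the 8 RAW264.7 libraries the same genes had r of 0.407, 0.464, -0.273, 0.098 and 0.387. Among the reductases, r with Akr1a1 was 0.889 for Akr1b8 and 0.818 for Adh5 in the libraries labelled BMDM, and -0.837 for Akr1b3. These values describe libraries that share 4 group means, and in RAW264.7 Akr1a1 was itself the targeted gene.

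Near-identical sequence limits the reading of 1 gene more than the others. Of the 50-base windows of its exons in GENCODE vM21, Akr1b3 shared 13.6% with other annotated genes, among them processed pseudogenes, and the antisense transcript Gm14546 that overlaps it had 0 counts. Akr1b8 shared 2.9%, mostly with Akr1b10, Cbr1 shared 1.85%, mostly with Gm5678, and the other 5 shared at most 1.18%. The labels name mm10, but the positions in the tables differ from those of GRCm38, the build of the promoters above, and the headers name no build. In the tables' coordinates Akr1b3, Akr1b8 and Akr1b10 lie side by side on chromosome 6 (34279369 to 34294413, 34331054 to 34345398 and 34361153 to 34373885), Akr1a1 lies on chromosome 4 (116493707 to 116508877), Adh5 on chromosome 3 (138148854 to 138161260) and Cbr1 on chromosome 16 (93402741 to 93407393). The fewest reads behind a value were 40 counts, for Cbr1 in RAW264.7, against 628 for Akr1a1.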

How the data were processed

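Poly(A) RNA-seq libraries of mouse macrophages were sequenced by the authors' provider. Per the labels, reads were processed with CASAVA and STAR (versions not given in the sources used here) on mm10, and the authors deposited raw counts per gene, with gene length and position, in 2 tables. Groups came from the GEO labels. The methods call replicates biological (iNOS KO experiment) or clonal (Akr1a1 KO experiment), and no source used here says whether the former came from separate cultures or animals, so p-values measure the spread between these samples.

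Counts were scaled by TMM and tested with edgeR 4.0.16 (quasi-likelihood F test, 2-sided, 1 mean per group, all 4 groups of a table fitted together) on genes with at least 10 counts in total, 18691 and 19569 genes. P-values were adjusted by Benjamini-Hochberg over all genes tested, and genes under 0.05 were called. The code was tested on simulated data. There, 37% of planted changes of 1 on the log2 scale were called for stimulated Akr1a1 KO against wildtype. For stimulated iNOS KO against wildtype, 100% were called. CPM used TMM-scaled totals, and levels were compared between genes per kilobase. Overlap of groups is a description of single genes, and the share of all genes without overlap was not computed. DESeq2 1.42.0 and limma 3.58.1 ran under R 4.3.3, and plots used matplotlib 3.10.9. The 2 tables were normalised and tested separately.

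The genes, the lists and the motifs were chosen with earlier results of these data known. All 8 genes are named. Of each list, up to 4 called genes of largest change in wildtype stimulation and in stimulated iNOS KO against wildtype are named, and Nfe2l2 was added after its value was seen. The 5 genes most like Akr1a1 are those of highest Pearson's r among protein-coding genes with mean log2 CPM over 3. Alternatives were DESeq2, other size factors and filters, a fold limit, a replicate block, fits of the compared groups alone, Akr1b7, Akr1b8 and Akr1b10 summed and each library left out. Leaving out both libraries of conflicting labels was chosen after seeing the data.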

Additional observations from a re-analysis of the deposited data

Results flagged for a closer look

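In the libraries labelled BMDM the response to stimulation differed between iNOS KO and wildtype, by the test of the difference itself, for Akr1a1 (-0.405 on the log2 scale), Akr1b3 (0.876) and Cbr1 (0.809).

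In stimulated wildtype cells, Akr1b10 moved up in the libraries labelled BMDM (log2 0.299) and down in RAW264.7 (-0.33), and Adh5 did likewise (0.169 and -0.123). The difference between the tables, which were normalised separately, was not tested, and neither fall in RAW264.7 passed its own test.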

How the results depend on the processing

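Of 80 comparisons of a gene, 32 were called, and of their 590 alternative values 540 stayed called in the same direction, 50 lost the call and 0 reversed. Of 865 recomputed counts of called list genes, 41 moved by more than 1.5 times. Of the 814 alternative values of uncalled comparisons, 22 gained a call in the same direction and 48 reversed. The share of all genes called was not computed for the alternatives, left-out libraries included. Counts of genes called moved by more than 1.5 times as follows. With a limit of 1 on the log2 fold change, the libraries labelled BMDM gave 3 genes for wildtype stimulation, 2 for iNOS KO stimulation and 0 for both genotype comparisons and the difference in response. With no filter on counts, there were 2 genes for unstimulated iNOS KO against wildtype and, in RAW264.7, 5 for wildtype stimulation and 1 each for Akr1a1 KO against wildtype in both states and for the difference in response. That gene was Akr1a1 (adjusted p = 1.13e-26 unstimulated and 4.86e-08 stimulated), whose own quasi-dispersion of 20.9 was moderated to 10.4 with the filter, while 20.6 was moderated to 0.532 without it. Fitting only the compared groups gave 2 for unstimulated iNOS KO against wildtype.

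Leaving out each library gave, labelled BMDM, 5 to 8 genes for wildtype stimulation (5 without wildtype stimulated replicate C), 6 to 8 for iNOS KO stimulation, 1 to 3 for unstimulated and 4 to 6 for stimulated iNOS KO against wildtype and 3 to 5 for the difference in response (3 unstimulated and 5 for the difference without iNOS KO stimulated replicate B). In RAW264.7, where the lone sample left in a group is assumed to vary like the other groups, it gave 3 to 4 in both stimulations and 0 to 1 for unstimulated KO against wildtype (1 without Akr1a1 KO unstimulated replicate A). With a replicate block, wildtype stimulation labelled BMDM gave 6 genes, losing Adh5 (adjusted p = 0.0577) and Akr1e1 (0.0532), RAW264.7 KO stimulation gave 3, losing Adh5 (0.0523), and no other count changed. The labels do not say what a letter marks: deviations from the group means of samples with the same letter correlated at -0.517 to 0.497 in the libraries labelled BMDM and at -0.165 to 0.438 in RAW264.7, where letters can share a clone only within a genotype and correlated at 0.438 in wildtype and 0.103 in Akr1a1 KO. No fit with a separate block for each genotype was run.

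Every comparison in which a value changed sign was uncalled with the main settings. Adh5, difference in response labelled BMDM: -0.014 with DESeq2, -0.014 with its size factors, -0.033 with filterByExpr, -0.0094 with protein-coding genes and -0.028 to 0.076 leaving out each library. Akr1b10, summed with Akr1b7 and Akr1b8: 0.142 for stimulated and 0.305 for unstimulated iNOS KO against wildtype, both called by edgeR (adjusted p = 0.047 and 0.00267). The sum was at -0.163 for the difference. In RAW264.7 it was at 0.183 and 0.104 for wildtype and KO stimulation and at -0.079 for the difference. Labelled BMDM, Akr1b8 had 50610 counts in total and Akr1b10 had 4966, so the sum mostly follows Akr1b8 there. Stimulated iNOS KO against wildtype, Akr1b10 was at 0.045 with only these groups and -0.113 to 0.051 leaving out each library. Akr1e1 in RAW264.7 wildtype stimulation was at 0.051 with DESeq2, 0.05 with its size factors, 0.02 with filterByExpr and -0.094 to 0.162 leaving out each library. Without both libraries of conflicting labels, the RAW264.7 difference in response was -0.053 for Akr1a1 and 0.025 for Akr1b8. Leaving out each library, unstimulated iNOS KO against wildtype ranged from -0.018 to 0.036 for Akr1b3 and -0.08 to 0.067 for Akr1e1. In RAW264.7, KO against wildtype unstimulated ranged from -0.24 to 0.094 for Akr1b3, -0.456 to 0.188 for Akr1b8 and -0.332 to 0.069 for Akr1e1, and stimulated from -0.291 to 0.0025 for Akr1b10, -0.074 to 0.181 for Akr1e1 and -0.033 to 0.197 for Akr7a5. KO stimulation ranged from -0.185 to 0.016 for Akr1b10 and -0.018 to 0.383 for Akr1e1, and the difference in response from -0.63 to 0.014 for Akr1b8, -0.00045 to 0.401 for Akr1e1 and -0.129 to 0.1 for Akr7a5. The cause of these changes was not tested. With 2 libraries per group, RAW264.7 limits what can be detected: the common dispersion was 0.05219, against 0.008449 in the libraries labelled BMDM.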

Other observations

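Within 100 kb of Akr1a1, 9 protein-coding genes were tested in the libraries labelled BMDM, and 2 rose and 5 fell in stimulated wildtype, where 32.4% of all genes tested rose and 28.5% fell. Prdx1, 33864 bases away, rose by 3.60 on the log2 scale and was lower in stimulated iNOS KO by -0.92, the directions of Akr1a1. Nasp, a histone chaperone gene 8569 bases away, fell by 1.54 and was higher in stimulated iNOS KO by 1.496, and Mmachc, a cobalamin processing gene, fell by 2.44 and was higher by 1.47. In the RAW264.7 Akr1a1 KO 0 of the 9 neighbours were called against wildtype by edgeR in either state, where 0.583% of all genes tested were called unstimulated and 0.286% stimulated. These neighbours were named after their values were seen.

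Cbr2, a further carbonyl reductase, had at most 6 counts in any library labelled BMDM and at most 27 in RAW264.7, and Cbr3 had at most 33 counts in RAW264.7, so no fold change is given for them there.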
